A study of Mus musculus with 75 samples.

Results

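This account describes what a high-fat diet did to epididymal white fat of mice that lack the cannabinoid receptor 1 (CB1), as 3 arrays of high-fat-fed knockout mice set against 5 arrays of chow-fed knockout mice, all given vehicle. The members were chosen by their titles, and these 8 arrays are part of 75 in the series, 36 of them from fat. The high-fat arrays carry the numbers 42, 43 and 44 and the chow arrays 15 to 19. All mice were male C57BL/6. The knockouts were homozygous CB1-/- mice from a line moved onto the C57BL/6J and then the C57BL/6N background, so that the receptor was missing in the whole body from conception and not in fat alone. From the age of 2 months they ate a diet with 59.4% of its energy from fat or chow with 13%, for 14 weeks. Both groups were caged singly 1 week before dosing and received 0.5% methylcellulose by gavage on 2 days, and tissue was taken on the morning after the second dose.

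Wild-type littermates on the same diets and vehicle gave 5 high-fat and 5 chow arrays, and the difference of the diet effect between the genotypes was tested with these. Other knockout mice, given AM251, a CB1 inverse agonist, at 10 mg per kg in the same vehicle, gave 5 high-fat and 3 chow arrays and share no array with the vehicle groups. The labels number the arrays without stating that each is 1 animal, so the p-values measure the spread between arrays, which may be partly technical.

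CB1 is a receptor for endocannabinoids, lipid messengers made on demand from membrane lipids, and is known best for its role in the brain, where it promotes feeding. Adipocytes and liver cells carry it too, and mice without it are known to stay lean on diets that fatten their littermates. In obese mice epididymal fat is known to collect macrophages, many of them around dying adipocytes, where they take up lipid and switch on a lysosomal and lipid-handling programme marked by Trem2 and Itgax. A diet rich in fat is also known to lower the enzymes that make new fatty acids from sugar in fat and liver. Values below are log2 intensities of probe sets, and a change is the high-fat mean minus the chow mean on that scale, with its standard error (SE). Each SE uses a spread pooled over 36 fat arrays in 8 groups, so it can be wider or narrower than that of the arrays compared. A gene passed the test where its p, adjusted over 19147 genes, was under 0.05.

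Averaged over its group mates, the Pearson r of an array lay at 0.991 to 0.994 in high-fat knockout fat and at 0.989 to 0.992 in chow knockout fat. On the first principal component of the fat arrays, which held 35.5% of the variance, the high-fat knockout arrays lay between 5.74 and 19.29 and the chow knockout arrays between 15.97 and 21.96. The high-fat wild-type arrays lay far away, between -50.36 and -23.46, and the chow wild-type arrays between 7.40 and 19.02. The label of fat was borne out by its markers: Adipoq, the gene of adiponectin, had 13.96, 13.94 and 14.01 in high-fat and 13.89, 13.80, 13.92, 13.93 and 13.90 in chow knockout fat, and Fabp4, the adipocyte fatty acid carrier, had 14.25 to 14.40 and 14.16 to 14.25. Cnr1, the gene of CB1, gave a signal of 5.85 to 6.75 in high-fat and 6.15 to 7.17 in chow knockout fat, against 5.73 to 6.39 in high-fat and 6.68 to 8.02 in chow wild-type fat. Where its probes lie relative to the deleted part is not known here, so this signal does not check the genotype. On the second component (10.4% of the variance) chow knockout arrays 15 and 19 lay at -25.56 and -19.36 and arrays 16, 17 and 18 at 6.72 to 18.55, with the high-fat knockout arrays at -12.81 to 9.10. Array 15 of the chow knockout group had the lowest mean of the fatty acid synthesis genes, at 10.20, where the group mean was 10.99. It was picked out on these values. A check for outlying arrays, given below, flagged it for Acly among the named genes of that list and not for the list mean. Results that rest on array 15 are given with and without it.

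In fat without CB1, 1 of 19147 genes (0.00522%) passed the test for the diet. This was Pth1r, the receptor for parathyroid hormone and its related protein, which fell by 0.94 ± 0.16 on the log2 scale (SE; adjusted p = 0.0433). Pth1r had 8.23, 8.21 and 8.17 in high-fat knockout fat, against 9.03, 9.43, 9.29, 8.83 and 9.10 in chow knockout fat. All 3 high-fat arrays lay below all 5 chow arrays, and the 3 lay within 0.06 of each other. Pth1r also fell in wild-type fat, by 0.80 ± 0.14 (adjusted p = 6.60e-05), and in AM251-treated knockout fat, by 1.45 ± 0.16 (adjusted p = 6.43e-06). The difference between the genotypes was -0.13 ± 0.22 (95% confidence interval -0.57 to 0.31; adjusted p = 0.793). The call was close to the threshold: without single arrays it was lost for each of the high-fat arrays 42, 43 and 44 (adjusted p of 0.102, 0.238 and 0.0507) and for the chow arrays 16, 17 and 19 (0.207, 0.107 and 0.108). It was also lost with the 2 compared groups alone in the fit (adjusted p = 0.235) and with 16 added to the intensities (0.0565), while the change stayed between -1.01 and -0.86 over all settings run.

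Before adjustment 1353 genes (7.07%) had a p under 0.05, where 957 are expected by chance. Arrays of the diets did not overlap for 998 genes (5.21%), with the high-fat arrays on top for 406 (2.12%) and below for 592 (3.09%). The number of genes past the test moved between 0 and 11 when single arrays were left out, with 11 without chow array 15, 6 without high-fat array 44, and 0 without high-fat array 43 or without chow array 16, 17 or 19. Weighting the arrays by their quality gave 62 genes, 30 higher and 32 lower in high-fat fat. Among these 62 were Abcg1, a sterol exporter, Sfrp5, a secreted Wnt inhibitor of fat, Elovl6 and Mlxipl of fatty acid synthesis and Rarres2, the gene of the adipokine chemerin.

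In wild-type fat the same diet moved 4689 genes (24.5%), 2321 up and 2368 down. To match the 3 high-fat knockout arrays, the fit was repeated with any 3 of the 5 high-fat wild-type arrays, and between 3276 and 4408 genes passed. The difference of the diet effect between the genotypes passed for 1213 genes (6.34%), for 550 with a higher change in the knockouts and for 663 with a lower one. With any 3 of the 5 high-fat wild-type arrays this count lay between 451 and 1811, and without single arrays between 713 and 1688. It was 713 without high-fat knockout array 44, 766 without array 42 and 782 without chow knockout arrays 15 and 19 together. The spread of the changes over all genes (SD) was 0.176 in knockout and 0.400 in wild-type fat.

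The genes that moved in wild-type fat had small median changes in the knockouts. The 2321 genes that rose in wild-type fat had a median change of 0.03 in knockout and 0.48 in wild-type fat, and the 2368 that fell had medians of -0.09 and -0.48. Among the 369 genes that rose by at least 1 on the log2 scale in wild-type fat, 11 had a knockout change of at least 50% of the wild-type one, and the difference between genotypes passed for 279 of the 369, with the smaller change in the knockouts. Among the 204 that fell by at least 1, the same held for 19 and 119 genes. Directions still leaned the same way: 1702 of the 2368 genes that fell in wild-type fat (71.9%) had a change below 0 in the knockouts, where 10534 of all 19147 genes did. Of the 2321 that rose, 1354 (58.3%) had a change above 0, where 45% of all genes did. The wild-type genes were chosen by changes measured on the wild-type arrays, and the knockout changes come from other arrays. The variances in that test, and the probe set taken for each gene, rested on all 36 fat arrays, knockouts included. The counts against 50% of the wild-type change and those of the difference do reuse the wild-type values behind the choice. That choice favours large wild-type changes, so these counts are a description and no separate test.

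**Figure D1:**
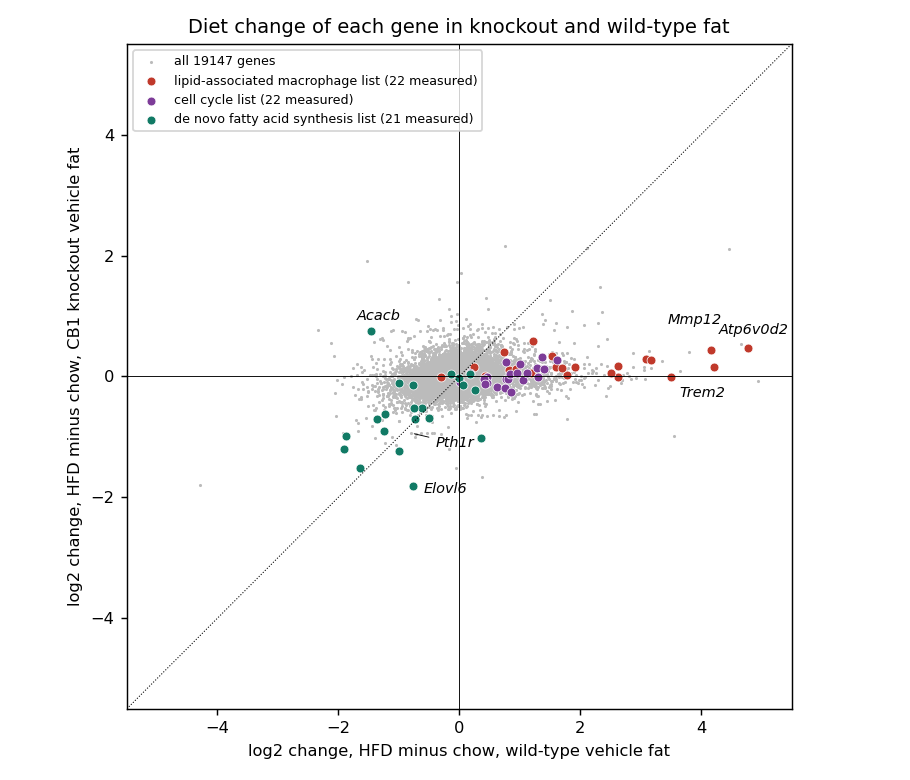
Each point is 1 gene, with its log2 change from chow to high-fat diet in wild-type vehicle fat on the horizontal axis and in CB1 knockout vehicle fat on the vertical axis; the dotted line marks equal change. Macrophage and cell cycle genes spread along the horizontal axis near 0 for the knockouts (Trem2 at -0.02 in knockout and 3.50 in wild-type fat), while most fatty acid synthesis genes lie below 0 on both axes.

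Macrophage genes differed between the genotypes. Of the 22 measured genes of lipid-associated macrophages, 0 passed the test in knockout fat and their median change was 0.15, against a median of -0.02 over all genes. With the 2 knockout groups alone in the limma fit, 0 of the 22 passed too. There 2 had an unadjusted p under 0.05, both with a higher level, where 1374 of all 19147 genes had one in either direction. In wild-type fat 21 of the 22 rose, where 12.1% of all genes did, with a median of 1.74. The difference between genotypes was negative and past the test for 16 of the 22, where 3.46% of all genes were, and it passed for 16 without chow array 15 and for 14 without chow arrays 15 and 19. With the 3 of the 5 high-fat wild-type arrays that gave the fewest genes past the test of the difference over all genes, it passed for 9. For the general macrophage list the counts were 0 of 24 in the knockouts (median -0.07), 20 of 24 higher in wild-type fat (median 0.95) and 15 of 24 with a negative difference, which was 9 with those 3 arrays. In bulk tissue, fewer cells of a type and less RNA per cell cannot be told apart.

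Trem2, a lipid-sensing receptor of macrophages, had 7.12, 6.50 and 7.14 in high-fat knockout fat, against 7.08, 6.57, 7.27, 6.93 and 6.82 in chow knockout fat. The diets overlapped, and the change was -0.02 ± 0.54 (95% confidence interval -1.12 to 1.09). In wild-type fat Trem2 had 12.13, 9.30, 10.30, 11.59 and 10.87 on the high-fat diet and 7.22, 8.09, 7.83, 6.86 and 6.70 on chow, a rise of 3.50 ± 0.47 (adjusted p = 2.50e-06). All 5 high-fat wild-type arrays lay above the other 3 vehicle groups. The difference between genotypes was -3.51 ± 0.72 (adjusted p = 0.00453), and it passed in all 18 fits without 1 array.

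Other genes of these cells followed the same layout. Mmp12, the macrophage elastase, had 7.40, 7.90 and 7.38 in high-fat and 7.75, 6.10, 7.79, 6.81 and 7.13 in chow knockout fat, and 13.09, 11.07, 11.70, 12.52 and 11.86 in high-fat and 7.97, 8.32, 8.94, 7.23 and 6.97 in chow wild-type fat. Its change was 0.44 ± 0.60 in the knockouts, and the difference from the wild type was -3.71 ± 0.79 (adjusted p = 0.00615). Itgax, which encodes CD11c, the integrin used to mark inflammatory fat macrophages, had 7.56, 7.51 and 6.88 in high-fat and 7.36, 6.59, 7.45, 6.72 and 7.09 in chow knockout fat. Its change of 0.27 ± 0.47 there stood against a rise of 3.17 ± 0.40 in wild-type fat, a difference of -2.90 ± 0.62 (adjusted p = 0.00571). Atp6v0d2, a subunit of the proton pump of lysosomes in macrophages and osteoclasts, had separate diets in the knockouts with a small change. Its high-fat knockout arrays, at 4.72, 4.63 and 4.56, all lay above the chow ones, at 4.44, 4.15, 4.52, 3.92 and 3.84, yet the change was 0.46 ± 0.63 (adjusted p = 0.957), against a rise of 4.77 ± 0.55 in wild-type fat. The SE of 0.63 rests on all 8 fat groups and not on the knockout arrays alone. Rgs1, a brake on chemokine receptors, had a change of 0.16 ± 0.54 in the knockouts and rose by 4.22 ± 0.47 in the wild type. Gpnmb, a glycoprotein of lipid-laden macrophages, had a knockout change of 0.06 ± 0.23 and a wild-type rise of 1.18 ± 0.20. Its 4 other probe sets had knockout changes of 0.09 to 0.55, and the next brightest averaged 11.74 in high-fat and 7.18 in chow wild-type fat, a wider gap than that of the probe set used.

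In the knockouts 2 of the 24 macrophage genes had an unadjusted p under 0.05 in the limma fit, both with a lower level. Of all genes 3.92% had one with a lower level. Aif1, which encodes the macrophage protein IBA1, was 1 of the 2. It had 6.86, 6.52 and 6.91 in high-fat knockout fat, against 7.53, 6.94, 7.25, 7.05 and 7.16 in chow knockout fat. Every high-fat array lay below every chow array, with a change of -0.42 ± 0.19 that did not pass (adjusted p = 0.652). In wild-type fat Aif1 rose by 0.97 ± 0.17, and the difference of -1.39 ± 0.25 passed (adjusted p = 0.00269). Timd4, a receptor of resident macrophages, was the other, with a change of -0.64 ± 0.26 in the knockouts (unadjusted p = 0.0168) and -0.55 ± 0.22 in wild-type fat. Lyve1, another gene of resident macrophages and of lymphatic vessels, had a change of -0.24 ± 0.23 in the knockouts and fell by 0.95 ± 0.20 in wild-type fat.

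**Figure D2:**
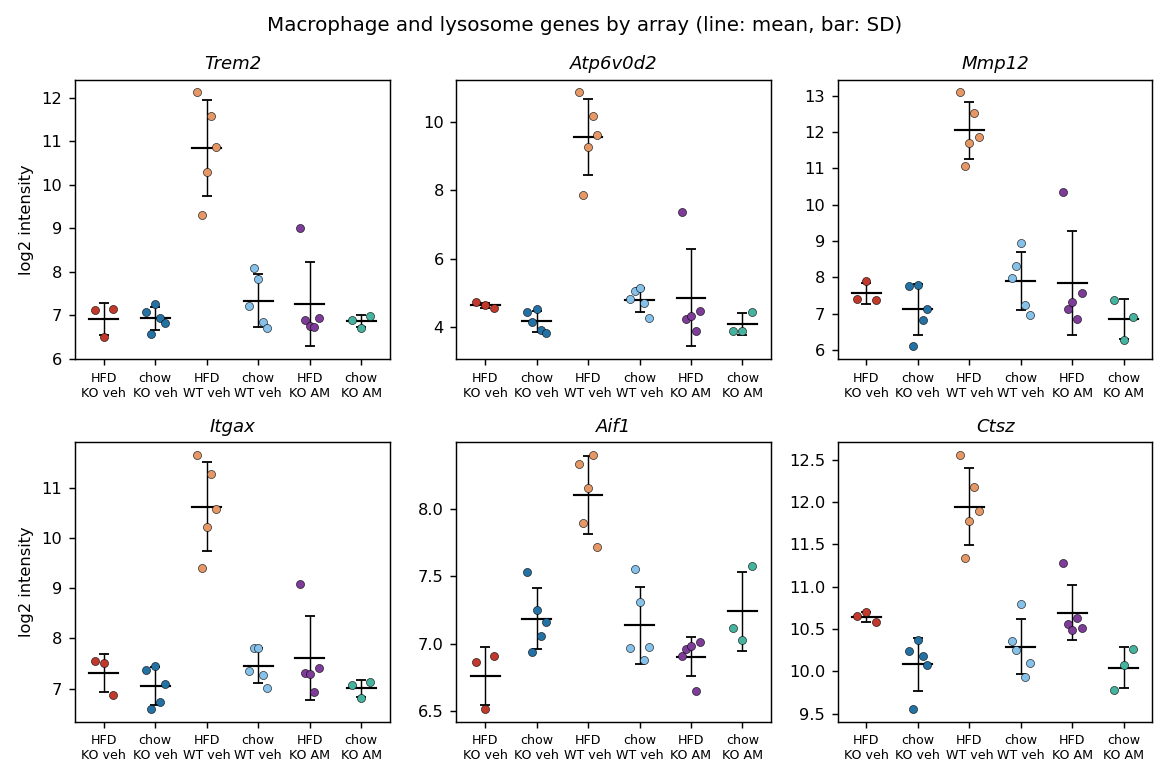
Log2 intensity of 6 macrophage and lysosome genes on every array, with the mean as a line and the SD as a bar, for high-fat (HFD) and chow groups of knockout (KO) vehicle, wild-type (WT) vehicle and AM251-treated (AM) knockout fat. The 3 high-fat knockout vehicle arrays sit at the height of the chow arrays for Trem2 (6.50 to 7.14 against 6.57 to 7.27), and the high-fat wild-type arrays sit at 9.30 to 12.13.

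Promoters of 2 of these genes are shown for the binding motif GAGGAAG of PU.1, the factor known to specify macrophages, and of 2 fatty acid synthesis genes for the CCAAT box, which the factor NF-Y binds beside sterol regulatory element binding proteins. Each sequence is the 250 bases before the start site in the RefSeq table for GRCm38.p6, 5′ to 3′ on the strand of the gene, with the motif on either strand in capitals.
Trem2, chr17:48346151-48346400, plus strand: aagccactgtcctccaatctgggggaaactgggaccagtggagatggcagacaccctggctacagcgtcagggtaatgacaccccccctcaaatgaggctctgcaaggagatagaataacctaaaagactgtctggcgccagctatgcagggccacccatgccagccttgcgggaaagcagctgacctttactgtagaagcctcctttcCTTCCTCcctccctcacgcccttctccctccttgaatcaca
Mmp12, chr9:7344147-7344396, plus strand: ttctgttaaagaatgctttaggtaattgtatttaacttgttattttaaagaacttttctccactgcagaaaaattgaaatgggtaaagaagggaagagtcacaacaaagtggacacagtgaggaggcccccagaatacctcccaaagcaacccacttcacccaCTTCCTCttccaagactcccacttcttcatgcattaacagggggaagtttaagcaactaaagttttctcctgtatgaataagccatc
Fasn, chr11:120824548-120824797, minus strand: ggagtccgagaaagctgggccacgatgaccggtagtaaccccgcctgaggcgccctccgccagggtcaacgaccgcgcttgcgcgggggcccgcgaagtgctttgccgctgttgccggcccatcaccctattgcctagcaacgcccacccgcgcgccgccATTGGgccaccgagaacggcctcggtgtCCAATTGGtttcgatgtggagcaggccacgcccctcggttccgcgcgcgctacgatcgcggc
Acacb, chr5:114165268-114165517, plus strand: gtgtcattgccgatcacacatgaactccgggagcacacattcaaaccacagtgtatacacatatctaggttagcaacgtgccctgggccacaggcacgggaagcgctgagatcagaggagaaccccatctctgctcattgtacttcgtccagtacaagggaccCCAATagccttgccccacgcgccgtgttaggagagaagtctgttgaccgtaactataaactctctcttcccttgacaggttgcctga
The capitals in Trem2 and Mmp12 are CTTCCTC, the motif read on the other strand, and Mmp12 is shown for the start site, of 2 in the table, that holds it. In Fasn a pair of matches overlaps, since CCAATTGG holds the motif on both strands. GAGGAAG stood in 6 of the 17 lipid-associated macrophage genes with a promoter in the table (35.3%), in 5 of 16 macrophage genes (31.2%) and in 12.3% of the 15275 measured genes with one. CCAAT stood in 10 of 17 fatty acid synthesis genes (58.8%) and in 38.7% of the 15275 genes. Neither motif was confined to its list. CCAAT also stood in 9 of the 17 lipid-associated macrophage genes (52.9%) and in 6 of 16 macrophage genes (37.5%). GAGGAAG also stood in 4 of the 17 fatty acid synthesis genes (23.5%). The E-box, CACGTG, was counted too. It stood in 4 of the 17 lipid-associated macrophage genes (23.5%), 3 of the 17 fatty acid synthesis genes (17.6%), 0 of 16 macrophage genes and 8.1% of the 15275 genes. These are counts of letters in these windows and were not tested.

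Lists that share cells or functions with macrophages showed the same contrast. Of 9 measured MHC class II genes, which present antigen on macrophages, dendritic and B cells, 0 passed in the knockouts (median -0.05), 8 rose in wild-type fat (median 0.81; 12.1% of all genes rose), and 6 had a negative difference past the test (3.46% of all genes). H2-Ab1, a class II chain, had a change of 0.19 ± 0.15 in the knockouts and rose by 0.81 ± 0.13 in the wild type. Ciita, the master regulator of the class, had a change of 0.14 ± 0.13 and rose by 0.81 ± 0.11, a difference of -0.67 ± 0.17 (adjusted p = 0.015; past the test in 17 of 18 fits without 1 array, 0.000736 to 0.0522). Of 25 chemokine, cytokine and receptor genes, 0 passed in the knockouts (median -0.04), 15 rose and 1 fell in wild-type fat (12.1% and 12.4% of all genes), and 7 had a negative difference (3.46%). Ccl2, the main attractant of monocytes, had 8.39, 8.67 and 7.74 in high-fat and 8.33, 8.21, 8.87, 8.33 and 8.45 in chow knockout fat, and 11.27, 11.81, 11.91, 10.53 and 10.91 in high-fat and 9.14, 10.44, 9.07, 8.99 and 8.43 in chow wild-type fat. The knockout diets overlapped, and the difference between genotypes was -2.24 ± 0.52 (adjusted p = 0.00941). Cxcl1, an attractant of neutrophils, had all high-fat knockout arrays on top, at 5.83, 6.42 and 5.66 against 5.13, 5.00, 5.601, 5.59 and 5.33 on chow, a change of 0.64 ± 0.30 that did not pass (adjusted p = 0.681). Cxcl1 rose by 0.73 ± 0.26 in wild-type fat, and the difference was -0.09 ± 0.40 (95% confidence interval -0.91 to 0.72).

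Of 19 lysosome genes, 0 passed in the knockouts (median 0.05), 15 rose in wild-type fat (median 0.52; 12.1% of all genes) and 5 had a negative difference (3.46%). Ctsz, the gene of cathepsin Z, had the smallest p of the list in the knockouts. It had 10.66, 10.70 and 10.58 in high-fat and 10.24, 9.56, 10.37, 10.18 and 10.08 in chow knockout fat, without overlap, a change of 0.56 ± 0.23 that did not pass (adjusted p = 0.563). It rose by 1.66 ± 0.20 in wild-type fat, and the difference was -1.09 ± 0.30 (adjusted p = 0.0234; past the test in 15 of 18 fits without 1 array, 0.00531 to 0.0635). Psap, the precursor of activators of sphingolipid breakdown, also had all high-fat knockout arrays on top, with a change of 0.38 ± 0.23, against a rise of 1.23 ± 0.20 in wild-type fat.

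Cell cycle genes did not pass in the knockouts either (0 of 22, median -0.02), while 20 of 22 rose in wild-type fat (median 0.82; 12.1% of all genes) and 15 had a negative difference (3.46%). The 15 became 8 without high-fat knockout array 44, 10 without high-fat knockout array 43, 10 without high-fat wild-type array 1, 10 without chow knockout arrays 15 and 19, and 3 with those 3 high-fat wild-type arrays that gave the fewest genes over all. The mean level of the list was 5.76, 5.70 and 5.63 in high-fat knockout arrays and 5.57 to 5.74 in chow ones, and 6.17 to 6.88 in high-fat and 5.58 to 5.83 in chow wild-type arrays. Top2a, a topoisomerase of dividing cells, had a change of -0.17 ± 0.12 in the knockouts and rose by 0.62 ± 0.10 in wild-type fat, a difference of -0.79 ± 0.16 (adjusted p = 0.00403). Rrm2, a subunit of the enzyme that makes deoxynucleotides, had a change of 0.33 ± 0.21 with all high-fat knockout arrays on top, and rose by 1.37 ± 0.18 in wild-type fat. Mcm3, part of the replication helicase, had a change of -0.25 ± 0.19 and rose by 0.86 ± 0.16 in wild-type fat.

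**Figure D3:**
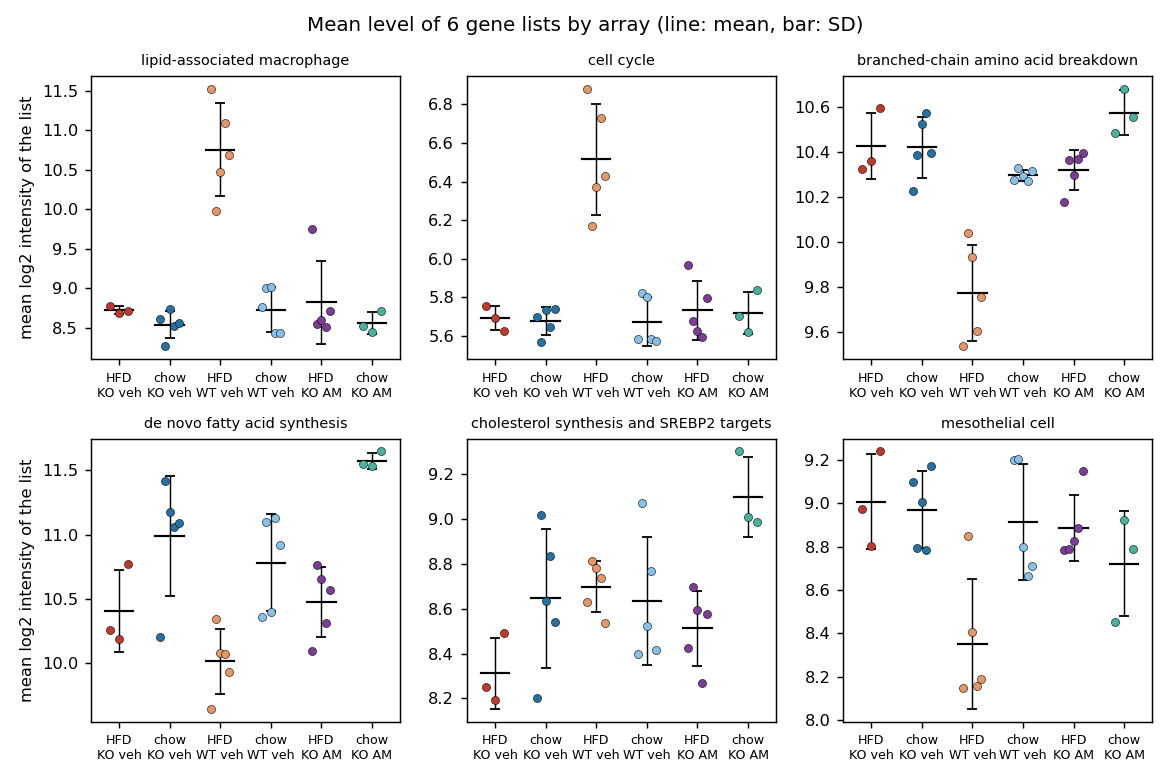
Mean log2 intensity of the measured members of 6 gene lists on every array, with group means as lines and SDs as bars, for high-fat (HFD) and chow groups of knockout (KO) vehicle, wild-type (WT) vehicle and AM251-treated (AM) knockout fat. The lipid-associated macrophage list lies at 8.68 to 8.78 in high-fat knockout vehicle and 9.98 to 11.53 in high-fat wild-type arrays, and 1 chow knockout array lies at 10.20 for fatty acid synthesis, among the high-fat values.

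Fatty acid synthesis had the lowest median change of the gene lists in knockout fat. Of 21 measured genes 0 passed the test, but 12 had an unadjusted p under 0.05 with a lower level on the high-fat diet, where 3.92% of all genes had, and 1 with a higher level. The median change was -0.63 in the knockouts and -0.77 in wild-type fat, where 10 of the 21 fell (12.4% of all genes fell there). The difference between genotypes passed for 2 of the 21, Acacb and Thrsp (Spot 14, a lipogenic protein), both with the higher change in the knockouts. Such a difference passed for 2.87% of all genes. Thrsp was named after its values were seen. The mean level of the list was 10.26, 10.19 and 10.77 on high-fat knockout arrays 42, 43 and 44, and 10.20, 11.42, 11.18, 11.06 and 11.09 on chow knockout arrays 15 to 19. Chow array 15 lay among the high-fat arrays and the other 4 chow arrays above all of them. Without array 15 the median was -0.76, 14 genes had an unadjusted p under 0.05 with a lower level, and Elovl6 and Acly passed the test. The 12 genes became 6 without high-fat array 43 (median -0.44), 7 without high-fat array 42 (median -0.51) and 8 with the compared groups alone. The median of the difference between genotypes was 0.12 with all arrays, and it was below 0 without chow knockout array 15 (-0.03, also without arrays 15 and 19 together), high-fat knockout array 44 (-0.08) or high-fat wild-type array 1 (-0.02) and with array weights (-0.02).

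Elovl6, the elongase that makes stearate from palmitate, had 7.60, 7.42 and 8.21 in high-fat knockout fat, against 7.61, 10.94, 9.77, 9.21 and 10.23 in chow knockout fat. Its lowest chow value, on array 15, lay within the high-fat range, and the change was -1.81 ± 0.44 (adjusted p = 0.201). Without array 15 it was -2.29 ± 0.37 (adjusted p = 0.0116). In wild-type fat the change was -0.77 ± 0.39 (adjusted p = 0.153), and in AM251-treated knockouts Elovl6 fell by 3.27 ± 0.44 (adjusted p = 9.80e-05). Acly, which makes acetyl-CoA from citrate, had 9.76, 9.79 and 11.27 in high-fat and 9.43, 12.27, 12.40, 11.66 and 11.76 in chow knockout fat, a change of -1.23 ± 0.44 with array 15 (adjusted p = 0.496) and of -1.75 ± 0.35 without it (adjusted p = 0.0439). High-fat array 44 lay close to the chow arrays.

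Acaca, which encodes the first committed enzyme of the pathway, had 10.65, 10.74 and 11.53 in high-fat and 10.90, 12.90, 12.53, 12.13 and 12.37 in chow knockout fat, a change of -1.19 ± 0.37 (adjusted p = 0.398). It fell by 1.91 ± 0.32 in wild-type fat, and the difference was 0.72 ± 0.49 (95% confidence interval -0.28 to 1.71). Its second probe set was dim and had a knockout change of -0.06. Fasn, the fatty acid synthase, had 9.32, 9.74 and 10.51 in high-fat and 9.43, 12.62, 11.90, 11.40 and 11.52 in chow knockout fat, a change of -1.52 ± 0.54 (adjusted p = 0.489), close in size to the fall of 1.64 ± 0.47 in wild-type fat. The 2 groups overlapped through chow array 15.

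Mlxipl and Fads1 separated the diets on every knockout array, array 15 included. Mlxipl, which encodes the carbohydrate-sensing factor ChREBP, had 9.35, 9.53 and 9.87 in high-fat knockout fat, against 10.03, 11.11, 10.43, 10.48 and 10.37 in chow knockout fat, a change of -0.90 ± 0.22 (adjusted p = 0.201). It fell by 1.24 ± 0.19 in wild-type fat. Fads1, a desaturase of polyunsaturated fatty acids, had 10.36, 9.76 and 10.72 in high-fat and 10.79, 11.16, 10.87, 10.89 and 10.82 in chow knockout fat, a change of -0.63 ± 0.20 (adjusted p = 0.436); its second probe set had a change of -0.24. Pnpla3 and Mid1ip1, named after their values were seen, also had all high-fat arrays below the chow arrays, with changes of -0.98 ± 0.34 and -0.69 ± 0.23. Scd1, the stearoyl-CoA desaturase, had 14.53, 14.54 and 14.54 in high-fat and 14.49, 14.51, 14.50, 14.46 and 14.50 in chow knockout fat, a change of 0.04 ± 0.07 at a bright signal, with all high-fat arrays on top. Its other, less bright probe set had a knockout change of 0.46, with wild-type means of 11.29 on the high-fat diet and 12.25 on chow. The probe set used had wild-type means of 14.35 and 14.48.

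**Figure D4:**
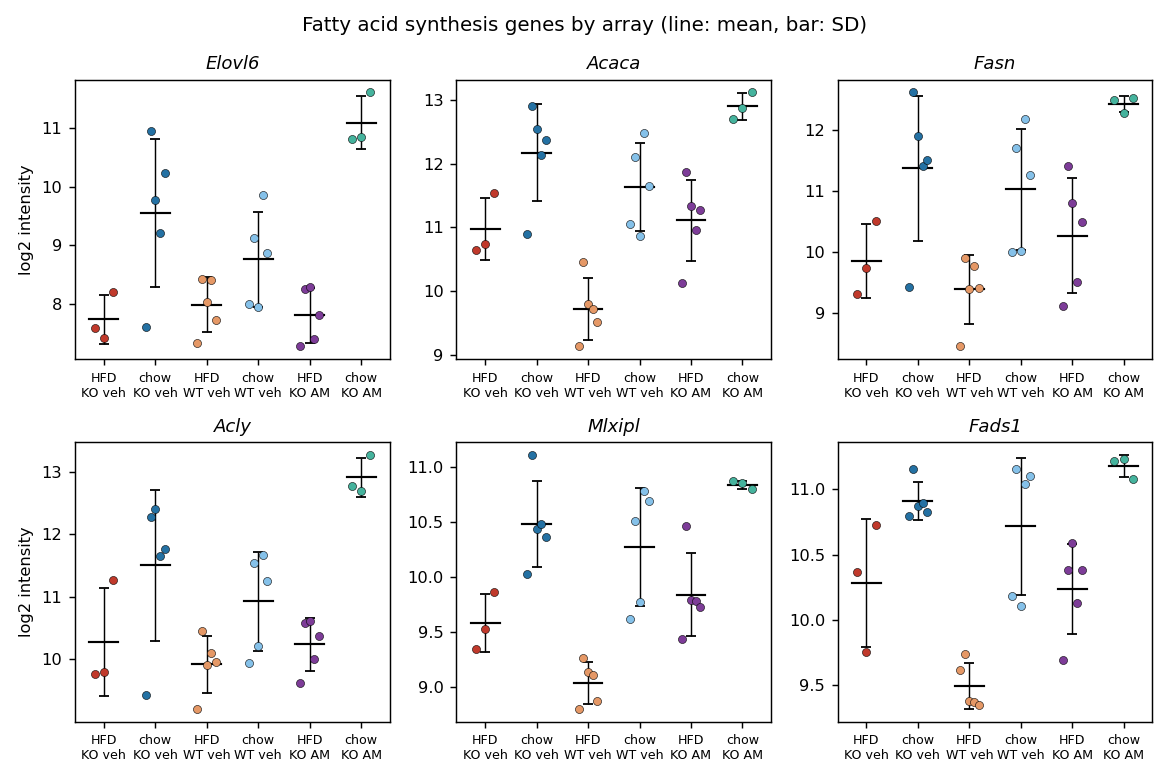
Log2 intensity of 6 fatty acid synthesis genes on every array, with the mean as a line and the SD as a bar, for high-fat (HFD) and chow groups of knockout (KO) vehicle, wild-type (WT) vehicle and AM251-treated (AM) knockout fat. One chow knockout vehicle array, number 15, lies within the high-fat range for Elovl6 (7.42 to 8.21), and for Mlxipl the 3 high-fat arrays (9.35 to 9.87) lie below all chow ones (10.03 to 11.11).

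Cholesterol synthesis genes, targets of the factor SREBP2, also had lower values on the high-fat diet in the knockouts. Of 19 measured genes 0 passed, 8 had an unadjusted p under 0.05 with a lower level (3.92% of all genes) and 0 with a higher one, and the median change was -0.37. The 8 became 3 without high-fat array 42, 3 without high-fat array 43, 4 without chow array 16 (median -0.21) 12 without chow array 15 (median -0.52) and 13 without chow arrays 15 and 19 together (median -0.57). In wild-type fat the median was 0.09, with 1 gene higher and 1 lower (12.1% and 12.4% of all genes). The difference had a median of -0.35 and passed for 0 genes of the list with all arrays, with 5 at an unadjusted p under 0.05 and a lower change in the knockouts (11.2% of all genes), and for 2 without chow array 15, 2 without chow wild-type array 2, 1 without high-fat wild-type array 6, 3 without chow knockout arrays 15 and 19 together and 3 with array weights. The 5 became 11 without chow knockout arrays 15 and 19 together, 8 without chow knockout array 15 or chow wild-type array 2, and 3 without high-fat knockout array 43 or chow wild-type array 5. Msmo1, a sterol methyl oxidase, had 8.89, 8.83 and 9.01 in high-fat knockout fat, against 9.02, 9.62, 9.43, 9.94 and 9.67 in chow knockout fat, without overlap. Its change was -0.63 ± 0.21 in the knockouts (adjusted p = 0.438) and 0.11 ± 0.18 in wild-type fat, and the difference was -0.74 ± 0.27 (adjusted p = 0.103). Cyp51, the lanosterol demethylase, had a change of -0.76 ± 0.26 in the knockouts and 0.27 ± 0.23 in wild-type fat, a difference of -1.03 ± 0.35 (adjusted p = 0.0671). Its dimmer second probe set did not show that gap, with a knockout change of -0.26 and wild-type means of 5.67 on the high-fat diet and 5.87 on chow. Mvd, of the mevalonate steps, had changes of -0.64 ± 0.23 in the knockouts and 0.15 ± 0.20 in wild-type fat. Stard4, a sterol carrier, was lower on every high-fat knockout array (-0.43 ± 0.18) and fell by 0.60 ± 0.15 in wild-type fat. A second Stard4 probe set of similar brightness had a knockout change of -0.37 but wild-type means of 7.03 on the high-fat diet and 6.96 on chow, and another, dim set had a knockout change of -0.11.

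Several genes of lipid release and re-esterification had opposite signs in the genotypes. Pck1, whose product makes the glycerol backbone for re-esterification in fat, had 12.64, 13.12 and 12.65 in high-fat knockout fat, against 12.27, 11.50, 12.12, 12.17 and 12.12 in chow knockout fat. All high-fat arrays lay on top, with a change of 0.77 ± 0.29 that did not pass by itself (adjusted p = 0.514). In wild-type fat Pck1 fell by 1.09 ± 0.25, with 10.69, 11.06, 10.35, 10.63 and 11.15 on the high-fat diet and 12.08, 11.37, 12.04, 11.67 and 12.17 on chow. The difference was 1.86 ± 0.38 (adjusted p = 0.00453) and passed in all 18 fits without 1 array. Of 14 triglyceride assembly genes, 0 passed in the knockouts (median -0.02), 8 fell and 2 rose in wild-type fat (12.4% and 12.1% of all genes), and 4 had a positive difference past the test (2.87%).

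Of 17 lipolysis and lipid droplet genes 0 passed in the knockouts (median 0.18), with 5 at an unadjusted p under 0.05, all 5 with a higher level, where 3.15% of all genes had. Aqp7, the channel through which glycerol leaves adipocytes, had 10.88, 10.69 and 10.40 in high-fat and 9.87, 9.64, 9.88, 10.14 and 9.95 in chow knockout fat, without overlap. Its change was 0.76 ± 0.29 in the knockouts and -0.53 ± 0.25 in wild-type fat, a difference of 1.29 ± 0.38 (adjusted p = 0.0354) that passed in 11 of 18 fits without 1 array, with adjusted p from 0.0371 to 0.103. Its second probe set agreed, with a knockout change of 0.75. Pde3b, the phosphodiesterase through which insulin holds lipolysis down, had 6.50, 6.60 and 6.396 in high-fat and 6.16, 6.39, 5.91, 6.19 and 5.82 in chow knockout fat, with a change of 0.40 ± 0.14, a fall of 0.48 ± 0.12 in wild-type fat and a difference of 0.88 ± 0.19 (adjusted p = 0.00678). Hcar2, a receptor for ketone bodies and niacin that holds lipolysis down, had 7.91, 7.84 and 7.96 in high-fat and 7.03, 7.05, 7.32, 7.66 and 7.10 in chow knockout fat, a change of 0.67 ± 0.23 (adjusted p = 0.46).

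Acacb, whose product makes the malonyl-CoA that holds back fatty acid oxidation, had 8.08, 8.28 and 6.93 in high-fat knockout fat, against 7.07, 6.83, 7.02, 7.29 and 6.85 in chow knockout fat. Arrays 42 and 43 lay above all chow arrays and array 44 among them, and the change was 0.75 ± 0.31 (adjusted p = 0.585). In wild-type fat Acacb fell by 1.46 ± 0.27, with 6.55, 6.57, 6.17, 7.20 and 6.52 on the high-fat diet and 7.47, 8.31, 7.64, 8.38 and 8.499 on chow, a difference of 2.21 ± 0.41 (adjusted p = 0.00286). The chow groups differed too, since all 5 chow knockout arrays lay below all 5 chow wild-type arrays, and in AM251-treated knockouts Acacb fell by 1.27 ± 0.31 (adjusted p = 0.0393).

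**Figure D5:**
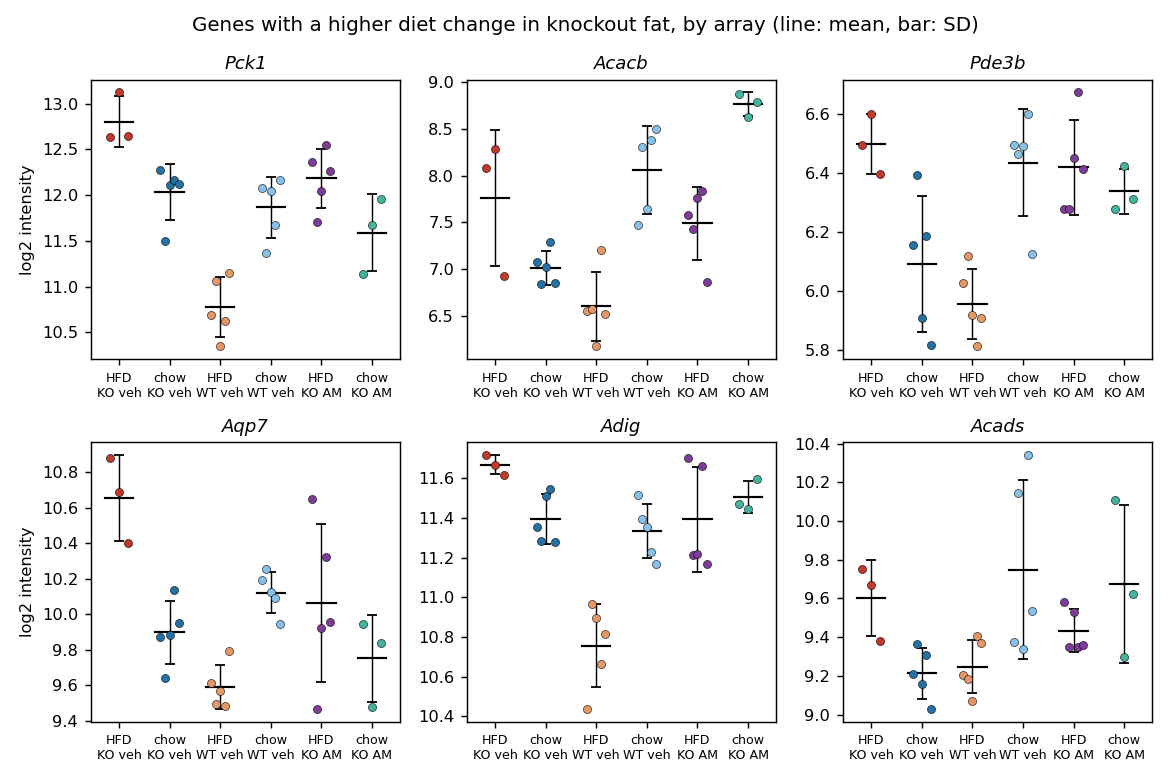
Log2 intensity of 6 genes whose diet change was higher in knockout than in wild-type fat, on every array, with the mean as a line and the SD as a bar, for high-fat (HFD) and chow groups of knockout (KO) vehicle, wild-type (WT) vehicle and AM251-treated (AM) knockout fat. Pck1 lies at 12.64 to 13.12 in high-fat and 11.50 to 12.27 in chow knockout vehicle fat, and at 10.35 to 11.15 in high-fat and 11.37 to 12.17 in chow wild-type fat.

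Adipocyte identity genes moved in wild-type fat and did not pass in the knockouts. Of 13 adipocyte identity genes 0 passed (median 0.08), while 7 fell and 1 rose in wild-type fat (median -0.23; 12.4% and 12.1% of all genes) and 3 had a positive difference past the test (2.87%). Adig, adipogenin, had 11.72, 11.67 and 11.62 in high-fat and 11.36, 11.29, 11.51, 11.55 and 11.28 in chow knockout fat, with all high-fat arrays on top, a change of 0.27 ± 0.14. It fell by 0.58 ± 0.12 in wild-type fat, and the difference was 0.85 ± 0.19 (adjusted p = 0.00758). Tmem120a, a membrane protein needed for adipocyte differentiation, had a change of 0.44 ± 0.12 in the knockouts (unadjusted p = 0.00107), again without overlap, and of -0.05 ± 0.11 in wild-type fat. Pparg, the master regulator of adipocytes, was lower on every high-fat knockout array, at 10.75, 10.92 and 11.01 against 11.03, 11.09, 11.43, 11.58 and 11.41 on chow, a change of -0.42 ± 0.18 that did not pass, beside a fall of 0.46 ± 0.15 in wild-type fat.

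Among 14 genes of adipokines and fat expansion 0 passed in the knockouts (median 0.15), with 4 at an unadjusted p under 0.05 on the higher side and 1 on the lower (3.15% and 3.92% of all genes). Leptin, which tracks fat mass, is encoded by Lep and had 12.59, 12.45 and 11.60 in high-fat knockout fat, against 12.67, 12.10, 11.67, 12.39 and 12.09 in chow knockout fat. The groups overlapped fully, with a change of 0.03 ± 0.28 (95% confidence interval -0.53 to 0.59), where wild-type fat showed a rise of 0.94 ± 0.24 (adjusted p = 0.00354). The difference of -0.91 ± 0.37 did not pass (adjusted p = 0.136). Sfrp5 had 11.61, 11.10 and 9.37 in high-fat and 10.22, 8.59, 8.62, 7.997 and 7.43 in chow knockout fat. Arrays 42 and 43 exceeded every chow array and array 44 lay below chow array 15, and the change of 2.13 ± 0.59 did not pass (adjusted p = 0.318), beside a rise of 2.11 ± 0.51 in wild-type fat and a difference of 0.02 ± 0.78. Rarres2 had 12.96, 12.83 and 12.76 in high-fat and 12.38, 11.996, 12.52, 12.54 and 12.37 in chow knockout fat, without overlap, a change of 0.49 ± 0.12 (adjusted p = 0.227), and rose by 0.50 ± 0.11 in wild-type and by 0.54 ± 0.12 in AM251-treated knockout fat. Nampt, of NAD synthesis, had a change of -0.42 ± 0.13, and Peg3, an imprinted gene tied to fat expansion, one of 1.11 ± 0.44 in the knockouts, with chow array 15 at 11.57 above the other 4 at 8.69 to 9.02. Without array 15 the change of Peg3 was 1.65 ± 0.33 (adjusted p = 0.0489). Npr3, the clearance receptor of natriuretic peptides, had a change of 0.44 ± 0.20 in the knockouts and 0.31 ± 0.17 in wild-type fat.

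Mitochondrial genes were compared next. Of 20 genes of branched-chain amino acid breakdown, a pathway known to decline in obese fat, 0 passed in the vehicle-treated knockouts, with 0 at an unadjusted p under 0.05 and a median of 0.02. In AM251-treated knockouts 0 passed as well, but the median was -0.24. There 6 of the 20 had an unadjusted p under 0.05 in the limma fit with a lower level, where 1150 of all 19147 genes had. In wild-type fat 17 of 20 fell (median -0.46; 12.4% of all genes), and 5 had a positive difference past the test, where 2.87% of all genes had one. The 5 became 2 without high-fat knockout array 44, 3 without high-fat knockout array 43, 10 without high-fat wild-type array 3 and 2 without chow knockout arrays 15 and 19. They became 0 with those 3 high-fat wild-type arrays that gave the fewest genes over all. In that limma fit 11 of the 20 had an unadjusted p under 0.05, where 3347 of all 19147 genes had one in either direction. The mean level of the list was 10.32, 10.36 and 10.59 in high-fat knockout fat and 10.23 to 10.57 in chow knockout fat, and 9.54 to 10.04 in high-fat and 10.27 to 10.33 in chow wild-type fat. Bckdhb, a subunit of the committed dehydrogenase, had a change of 0.18 ± 0.12 in the knockouts and fell by 0.37 ± 0.10 in the wild type, a difference of 0.55 ± 0.16 (adjusted p = 0.0336; past the test in 10 of 18 fits without 1 array, 0.0268 to 0.125). Bcat2, the transaminase of the first step, was the member with the smallest p in the knockouts, with a change of -0.35 ± 0.19 beside a fall of 1.04 ± 0.17 in wild-type fat.

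Of 18 citrate cycle and pyruvate dehydrogenase genes 0 passed in the knockouts (median -0.08), 11 fell in wild-type fat (12.4% of all genes) and 2 had a positive difference (2.87%). Pdha1 and Pdhb, subunits of pyruvate dehydrogenase, had changes of -0.48 ± 0.14 and -0.41 ± 0.18 in the knockouts and fell in wild-type fat (by 0.63 and 0.70) and in AM251-treated knockouts (by 0.93 and 1.01). The second probe set of Pdha1 had a change of -0.20 in the knockouts. Dlst, of the oxoglutarate dehydrogenase, had a change of 0.27 ± 0.11 in the knockouts and fell by 0.36 ± 0.09 in the wild type, a difference of 0.63 ± 0.15 (adjusted p = 0.00881), with probe sets that did not agree (knockout changes of 0.97 and -0.20 in the others). Of 23 oxidative phosphorylation genes 0 passed in the knockouts (median -0.05), while 8 fell and 1 rose in wild-type fat (12.4% and 12.1% of all genes). In AM251-treated knockouts 5 of the 18 citrate cycle genes and 3 of these 23 fell (0.512% of all genes), with medians of -0.37 and -0.27. Of 22 fatty acid oxidation genes 0 passed in the vehicle-treated knockouts (median 0.12). Among them Cpt1a, the carnitine transferase that admits fatty acids to mitochondria, had 10.58, 10.56 and 10.49 in high-fat and 10.35, 10.06, 10.29, 9.99 and 9.99 in chow knockout fat, without overlap, a change of 0.41 ± 0.14 (adjusted p = 0.438) beside a rise of 0.61 ± 0.12 in wild-type fat. Acads, the short-chain dehydrogenase, had a change of 0.39 ± 0.17 in the knockouts, fell by 0.50 ± 0.15 in the wild type and differed by 0.89 ± 0.23 (adjusted p = 0.0173; past the test in 17 of 18 fits without 1 array, 0.00939 to 0.0609).

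Genes of fatty acid uptake and glucose use did not pass in the knockouts. Of 14 fatty acid uptake genes 0 passed in the knockouts (median 0.08). Angptl4, an inhibitor of lipoprotein lipase, had 13.30, 13.04 and 12.95 in high-fat and 12.77, 12.16, 12.73, 12.39 and 11.32 in chow knockout fat, without overlap, a change of 0.82 ± 0.25 (adjusted p = 0.398) beside 0.56 ± 0.22 in wild-type fat. Of 17 insulin signalling and glucose genes 0 passed (median -0.16), with 3 at an unadjusted p under 0.05, all with a lower level (3.92% of all genes). Hk2, a hexokinase, had 10.16, 10.20 and 10.23 in high-fat and 10.66, 10.71, 10.37, 10.60 and 10.56 in chow knockout fat, a change of -0.39 ± 0.18, against a fall of 1.28 ± 0.16 in wild-type fat and a difference of 0.89 ± 0.24 (adjusted p = 0.0216; past the test in 17 of 18 fits without 1 array, 0.00583 to 0.0571). Ppp1r3c, a glycogen-targeting subunit, had a change of -0.56 ± 0.18 with all high-fat arrays below the chow ones, and fell by 1.41 ± 0.16 in wild-type fat. Akt1, a kinase of insulin signalling, had a change of -0.23 ± 0.10 in the knockouts and 0.14 ± 0.08 in wild-type fat.

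Markers of the other cells of the fat pad were compared as well. Of 14 mesothelial genes, from the layer that covers the pad, 0 passed in the knockouts (median -0.01), 8 fell in wild-type fat (median -0.60; 12.4% of all genes) and 4 had a positive difference (2.87%). Msln, mesothelin, had 9.82, 9.58 and 9.34 in high-fat and 9.19, 9.11, 9.09, 9.07 and 9.11 in chow knockout fat, without overlap, a change of 0.46 ± 0.19 (adjusted p = 0.565), and differed from the wild type by 0.82 ± 0.25 (adjusted p = 0.0406; past the test in 6 of 18 fits without 1 array, 0.0146 to 0.135). Wt1, a transcription factor of these cells, had a change of -0.30 ± 0.18 in the knockouts, fell by 1.07 ± 0.15 in the wild type and differed by 0.77 ± 0.24 (adjusted p = 0.0445; past the test in 6 of 18 fits without 1 array, 0.026 to 0.177). The B cell list had a median of -0.24 in the knockouts, with 3 of 9 genes at an unadjusted p under 0.05 and lower (3.92% of all genes). Cd79b, a part of the B cell receptor, had 5.97, 6.15 and 5.62 in high-fat and 7.30, 6.13, 6.58, 6.42 and 6.36 in chow knockout fat, a change of -0.65 ± 0.28, against a rise of 0.77 ± 0.25 in wild-type fat and a difference of -1.42 ± 0.38 (adjusted p = 0.0194; past the test in 17 of 18 fits without 1 array, 0.0156 to 0.0756). Ms4a1, which encodes CD20, had a change of -0.64 ± 0.26 and differed by -1.19 ± 0.35 (adjusted p = 0.034; past the test in 11 of 18 fits without 1 array, 0.0212 to 0.12). The dimmer second probe set of Ms4a1 had a knockout change of -0.20, with wild-type means of 4.43 on the high-fat diet and 4.39 on chow.

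Of 17 endothelial genes 0 passed in the knockouts (median 0.11). Egfl7 and Cldn5, of vessel lumen and tight junctions, were higher on every high-fat knockout array, with changes of 0.58 ± 0.17 and 0.60 ± 0.25, and Egfl7 rose by 0.67 ± 0.15 in wild-type fat. Of 32 matrix genes 0 passed (median 0.12). Postn, periostin, had 10.05, 10.61 and 9.58 in high-fat and 9.49, 8.91, 9.20, 9.19 and 9.24 in chow knockout fat, without overlap, a change of 0.87 ± 0.25 (adjusted p = 0.361) beside a rise of 1.38 ± 0.22 in wild-type fat. Thbs1, thrombospondin 1, had 12.26, 12.23 and 10.29 in high-fat and 9.92, 8.49, 10.55, 9.31 and 8.92 in chow knockout fat, a change of 2.16 ± 0.53 (adjusted p = 0.201) with array 44 within the chow range. Eln, elastin, had a change of 0.43 ± 0.17 in the knockouts, fell by 0.56 ± 0.15 in the wild type and differed by 0.99 ± 0.23 (adjusted p = 0.00972; past the test in 17 of 18 fits without 1 array, 0.00192 to 0.0515). Of 11 adipocyte progenitor genes 0 passed (median -0.15). Ccn5 and Pi16, of fibroblasts and early progenitors, had changes of 0.82 ± 0.37 and 0.78 ± 0.34, and Fgf10, a growth factor of progenitors, differed from the wild type by 1.10 ± 0.27 (adjusted p = 0.0117).

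In the remaining lists 0 genes passed in the knockouts. Median changes were -0.11 for 11 T cell genes, -0.12 for 9 neutrophil genes, 0.10 for 9 mast cell genes and -0.14 for 5 eosinophil genes. They were 0.03 for 11 genes of epididymis and testis, 0.05 for 11 muscle genes and -0.12 for 2 red cell genes, which mark tissue that could be carried over at dissection. Prm2, a sperm protamine, ran from 3.57 to 7.95 in high-fat and from 3.50 to 5.95 in chow knockout arrays, with the highest value on high-fat array 44, and its part in the results was not tested. Medians were 0.08 for 14 brown and beige adipocyte genes, 0.00 for 18 stress genes of the endoplasmic reticulum, -0.04 for 12 hypoxia genes and -0.12 for 18 antioxidant genes. They were -0.05 for 18 clock genes, -0.01 for 12 acute phase genes and 0.07 for 17 interferon-stimulated genes. Ucp1, the uncoupling protein of brown fat, was dim throughout, at 4.71, 4.49 and 4.80 in high-fat and 4.55 to 5.17 in chow knockout fat. Saa3, an acute phase protein of fat, had a change of 0.06 ± 0.54 in the knockouts and rose by 2.77 ± 0.47 in wild-type fat, a difference of -2.71 ± 0.71 (adjusted p = 0.0181; past the test in 17 of 18 fits without 1 array, 0.00659 to 0.0506). Ifi27l2a, an interferon-stimulated gene, had 13.77, 13.78 and 13.80 in high-fat and 13.26, 13.42, 13.47, 13.53 and 13.24 in chow knockout fat, a change of 0.40 ± 0.09 with the smallest p of its list (unadjusted p = 0.000153; adjusted p = 0.182). Ifit2, of the same response, had a change of 0.48 ± 0.14 without overlap, while Rsad2, also of that response, had a change of -0.43 ± 0.16. Pdk1, a kinase that inhibits pyruvate dehydrogenase and is a hypoxia target, had a change of -0.66 ± 0.16 in the knockouts (adjusted p = 0.201) and of -0.78 ± 0.16 without array 15 (adjusted p = 0.0489). Nfil3, a clock-controlled repressor, was lower on every high-fat knockout array, with a change of -0.96 ± 0.36 (adjusted p = 0.514).

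The endocannabinoid system itself did not pass in the knockouts (0 of 15 genes, median 0.00). Cnr1 had a change of -0.53 ± 0.37 there and fell by 1.06 ± 0.32 in wild-type fat (adjusted p = 0.0136). Its second, dimmer probe set did not show that fall, with wild-type means of 5.61 on the high-fat diet and 5.51 on chow. That set had a change of 0.23 in the knockouts. Mgll, which breaks down the endocannabinoid 2-arachidonoylglycerol, had a change of 0.14 ± 0.09, Dagla, which makes it, one of -0.16 ± 0.12, and Abhd12, a further hydrolase, one of 0.32 ± 0.20 in the knockouts, while Abhd12 rose by 0.92 ± 0.17 in wild-type fat. The 3 other probe sets of Mgll had knockout changes of 0.28 to 0.44. Cnr2, the receptor of immune cells, and Daglb, the diacylglycerol lipase of macrophages, were the 2 members with a difference past the test, at -1.49 ± 0.40 and -1.34 ± 0.38 (3.46% of all genes had a negative one). Their knockout changes were -0.12 ± 0.31 and 0.15 ± 0.29, and they were named after their values were seen.

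The 8 most negative differences between the genotypes were those of Tph2, Hmox1, Atp6v0d2, Ubd, Rgs1, Mmp12, Vsig8 and Trem2. Tph2, which encodes a tryptophan hydroxylase known from neurons, had 4.13, 4.24 and 3.82 in high-fat and 3.84 to 4.48 in chow knockout fat, and 8.71, 7.37, 10.01, 10.05 and 9.68 in high-fat and 3.85 to 4.51 in chow wild-type fat, a difference of -5.02 ± 0.93 (adjusted p = 0.00277). Ubd, a ubiquitin-like protein induced by interferon and tumour necrosis factor, had a change of 0.54 ± 0.54 in the knockouts and rose by 4.67 ± 0.47 in wild-type fat. Vsig8 had a change of 0.10 ± 0.65 in the knockouts and rose by 3.66 ± 0.57. Hmox1, the heme oxygenase, was uneven among the knockouts, with 5.79, 5.46 and 7.98 on the high-fat diet and 6.24, 7.75, 7.84, 7.34 and 7.78 on chow. Chow wild-type fat had 5.11 to 6.53, so 4 of the 5 chow knockout arrays lay above it, and the difference of -4.54 ± 0.82 (adjusted p = 0.00244) holds this gap between the chow groups too.

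The 8 most positive differences were those of Rab5c, Hoxb8, Alb, Kif1c, Fam13a, Acacb, Chtf8 and Sema5a. Fam13a, a gene linked to fat distribution in people, had 10.26, 10.32 and 10.32 in high-fat and 9.71 to 10.34 in chow knockout fat, and 7.35, 7.78, 7.42, 7.57 and 7.75 in high-fat and 9.13 to 9.87 in chow wild-type fat. It had a change of 0.33 ± 0.38 in the knockouts and fell by 2.07 ± 0.33 in the wild type, a difference of 2.40 ± 0.50 (adjusted p = 0.00541). Sema5a, a guidance protein, had a change of -0.06 ± 0.34 and fell by 2.02 ± 0.30. For Rab5c, an early endosome GTPase, the knockout arrays were split: 11.17, 11.19 and 8.09 on the high-fat diet and 9.20, 8.13, 7.68, 8.06 and 8.10 on chow, with 8.96, 9.35, 9.75, 11.73 and 8.05 in high-fat and 10.68 to 11.48 in chow wild-type fat. Its difference of 3.43 ± 1.02 (adjusted p = 0.0373) passed in 9 of 18 fits without 1 array (adjusted p 0.0149 to 0.129). Hoxb8, a position gene, had 6.10, 5.85 and 4.96 in high-fat and 4.15 to 5.80 in chow knockout fat, and 4.09 to 4.78 in high-fat and 5.88 to 7.32 in chow wild-type fat, so its chow groups did not overlap either. Chtf8, of sister chromatid cohesion, had a change of 0.58 ± 0.29 in the knockouts and fell by 1.40 ± 0.25 in the wild type. Alb and Kif1c, albumin and a kinesin, had differences of 2.68 ± 0.83 and 2.41 ± 0.73, which passed in 6 and 4 of 18 fits without 1 array (adjusted p 0.0157 to 0.201 and 0.0158 to 0.14).

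Knockout mice given AM251, in place of vehicle, gave a separate set of arrays on the same diets. There 155 genes passed the test for the diet (0.81%), 57 higher and 98 lower, with 35 to 164 genes without single arrays and 35 without chow array 23, 61 without chow array 21, 80 without chow array 20 and 101 without high-fat array 49. It was 78 without high-fat array 45, which carried a lipid-associated macrophage level of 9.75, against 8.51 to 8.71 on the other 4 high-fat arrays and 8.45 to 8.71 on the chow arrays. Its part in the result was not tested, and neither was the difference between the 2 knockout sets. Of the 155 genes 146 had the same sign in vehicle-treated knockouts, where 54.5% of all genes had the same sign in both. The 57 genes that rose had a median of 0.32 in vehicle-treated and 0.65 in AM251-treated knockouts, and the 98 that fell had medians of -0.35 and -0.77. Across all 19147 genes the changes in the 2 knockout sets had a Pearson correlation of 0.35, a description over genes that are not independent. Of the 155 genes, 78 (50.3%) also passed in wild-type fat, where 24.5% of all genes passed. These 78 are 1.66% of the wild-type genes, and 70 of them moved in the same direction.

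Of the 21 measured fatty acid synthesis genes, 10 fell in AM251-treated knockouts (where 0.512% of all genes fell), with a median of -0.94. The list mean was 10.09, 10.76, 10.65, 10.31 and 10.57 on the high-fat arrays and 11.55, 11.53 and 11.65 on the chow arrays, without overlap, and no chow array there stood as low as vehicle array 15. Acly fell by 2.67 ± 0.44 and Acaca by 1.79 ± 0.37 (adjusted p = 0.00121 and 0.0127). Sfrp5 rose by 3.35 ± 0.59 (adjusted p = 0.00248), with 12.56, 10.58, 10.18, 10.63 and 9.85 on the high-fat diet and 7.43, 7.07 and 7.73 on chow. Abcg1 rose by 1.14 ± 0.19 (adjusted p = 0.00113), and in vehicle-treated knockouts it had 10.66, 10.82 and 10.20 on the high-fat diet and 10.07, 9.65, 9.43, 9.47 and 9.58 on chow, a change of 0.92 ± 0.19 without overlap (adjusted p = 0.166). Prelp, a matrix proteoglycan, rose by 1.09 ± 0.15 and had a change of 0.65 ± 0.15 in vehicle-treated knockouts. Cyp1a1, a xenobiotic hydroxylase, fell by 1.42 ± 0.20 and had all high-fat arrays below the chow ones in vehicle-treated knockouts too, with a change of -0.94 ± 0.20. Abcg1, Prelp and Cyp1a1 were named after their values were seen. The lipid-associated macrophage list had 0 of 22 genes past the test in AM251-treated knockouts (median 0.28), as had the cell cycle list (0 of 22, median 0.06). At an unadjusted p under 0.05 and a higher level stood 0 and 1 genes of these lists, where 6.89% of all genes stood.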

How the data were processed

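The arrays were 1-colour arrays of biotin-labelled cRNA from total RNA, and the series holds 1 array per sample. The deposited values are probe set intensities, made by the authors with RMA, per the submitters' processing notes, with no version named. RMA subtracts background and equalises the arrays, so global shifts are removed. Here log2 of each deposited intensity was taken, and the log2 scale is used throughout. Each gene was read from its probe set with the highest mean. The 13907 probe sets without a single gene symbol, 13842 with none and 65 with several, were tested apart for the knockout diet effect. Of them 0 passed and 816 had an unadjusted p under 0.05 in the limma fit. Genes were tested with limma 3.58.1 (1 mean per group, 36 fat arrays in 8 groups, moderated variances), with Benjamini-Hochberg adjustment over 19147 genes and a threshold of 0.05. Computation used R 4.3.3, pandas 2.3.3 and numpy 2.4.6, and the fit was checked on simulated data. The number of arrays limits the precision. Named genes were the up to 12 largest rises and falls past the test without overlap, up to 4 members of each list with the smallest p, a fixed list, and the 8 largest differences each way. Others are marked. The members and gene lists were chosen with earlier results of these data known. Alternatives covered normalisation, probe set choice, a filter on dim genes, an added 16, array weights, a variance trend, other sample sets, each array left out and a replicate block.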

Additional observations from a re-analysis of the deposited data

Results flagged for a closer look

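For each of the 174 named genes and 38 lists, the 5 chow knockout vehicle arrays were checked for 1 array far from the rest. Of these 212 groups of 5, 19 held one. Chance gives about 1 in 20 for independent groups that were not selected. These groups share the same 5 arrays, and many of the genes were named for a small p on them. The 19 can therefore not be set against that rate. The 3 high-fat knockout arrays are too few for this check, and the other groups were not checked.

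Chow knockout array 15 stood apart for Acly at 9.425 (lowest), Cnr1 at 6.146 (lowest), Idh3a at 11.326 (lowest), Pdhb at 11.2 (lowest), Peg3 at 11.572 (highest), Slc2a1 at 8.126 (highest) and the mean of the list of adipokines and fat expansion at 11.299 (highest), as log2 intensities. Chow knockout array 16 stood apart for Cldn15 at 9.705 (lowest), Ctsl at 11.077 (lowest), Fads1 at 11.156 (highest), Gpnmb at 8.003 (lowest) and Pck1 at 11.502 (lowest), as log2 intensities. Chow knockout array 17 stood apart for Zap70 at 5.906 (highest), as log2 intensities. Chow knockout array 18 stood apart for Mmp8 at 4.171 (highest), as log2 intensities. Chow knockout array 19 stood apart for Bhlhe40 at 10.017 (highest), Fcer1a at 3.911 (highest), Fgg at 6.172 (highest), Prg2 at 4.924 (lowest) and Sod3 at 9.857 (lowest), as log2 intensities.

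The diet effect differed between the genotypes by the test of the difference itself for 49 named genes, given here as the knockout change minus the wild-type change on the log2 scale. It was negative for Tph2 (-5.024), Hmox1 (-4.539), Atp6v0d2 (-4.308), Ubd (-4.128), Rgs1 (-4.059), Mmp12 (-3.713), Vsig8 (-3.56), Trem2 (-3.515), Itgax (-2.9), Saa3 (-2.714), Atf3 (-2.485), Ccl2 (-2.242), Cd79b (-1.416), Aif1 (-1.39), Ctsl (-1.197), Ms4a1 (-1.19), Orm2 (-1.133), Gpnmb (-1.127), Mcm3 (-1.112), Ctsz (-1.094), Rrm2 (-1.041), Cx3cr1 (-1.026), Top2a (-0.791), H2-Ob (-0.676), Ciita (-0.67) and Pkm (-0.646). It was positive for Rab5c (3.43), Hoxb8 (3.107), Alb (2.68), Kif1c (2.409), Fam13a (2.397), Acacb (2.206), Chtf8 (1.979), Sema5a (1.964), Pck1 (1.862), Tie1 (1.446), Aqp7 (1.29), Gpm6a (1.179), Fgf10 (1.103), Eln (0.987), Hk2 (0.89), Acads (0.888), Pde3b (0.882), Ppp1r3c (0.853), Adig (0.851), Msln (0.821), Wt1 (0.77), Dlst (0.631) and Bckdhb (0.549). Calls for Alb, Kif1c, Pkm, Msln and Wt1 were the least stable, passing in 6, 4, 4, 6 and 6 of 18 fits without 1 array.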

How the results depend on the processing

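The diet effect in knockout vehicle fat, 1 gene in the reported fit, gave 0 with the compared groups alone, 0 with 16 added to the intensities, 62 with array weights, 3 with the 4 vehicle groups and 0 without chow arrays 15 and 19, and 0 to 11 without single arrays. Quantile normalisation, the mean of all probe sets, the dim filter and the variance trend each gave 1. The wild-type effect, 4689 genes, gave 4037 to 4828 without single arrays and 2145 with the replicate number as a block. Deviations of same-numbered wild-type arrays correlated between -0.128 and 0.057. Few numbers are shared, so this cannot decide whether they pair the arrays, and the labels do not say. The difference between genotypes, 1213 genes, gave 1870 with array weights, 451 with the smallest set of 3 of 5 high-fat wild-type arrays, 782 without arrays 15 and 19 and 713 to 1688 without single arrays. The AM251-treated knockouts, 155 genes, gave 498 with array weights and 35 to 164 without single arrays. The sets of 3 arrays and the fits without arrays 15 and 19 were chosen after seeing the data. Of the single-gene results under these settings, 9 in the knockouts and 180 for the difference lost the threshold, and 14 and 79 gained it. The sign changed for 0 results that passed the test in either fit, and for 31 and 152 that passed in neither. The cause of these shifts was not tested. The median SE of a change was 0.126 in knockout fat, with 3 high-fat arrays, and 0.109 in wild-type fat, with 5.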
